A study of Mus musculus with 2 samples.

Results

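Among 9 genes of NF-kB signalling and vascular inflammation, Klf4 peaks lay at the 3 regulators Nfkbiz, Nfkbia and Nfkb1, and no peak lay in the windows of the 6 inflammatory effector genes Ccl2, Il6, Cxcl12, Icam1, Vcam1 and Ptgs2. Nfkbiz carried the peak ranked 3 by score among 7313, Nfkb1 carried a peak at rank 1190, and Nfkbia carried 2 peaks at ranks 2699 and 6738. The windows of the regulators were 70, 35 and 140 kb wide, in that order, against 30 to 50 kb for the effector genes. The split therefore depends in part on the windows: with 10 kb added on each side, Icam1 also held a peak. The window centre of Icam1 was nearer to a peak (17.5 kb) than that of Nfkb1 (53.6 kb), but a window centre is not the start of a gene. The 9 genes were given 1 window each on mouse genome build mm9, from 30 to 140 kb wide and 485 kb in all, and a peak belonged to a gene when its midpoint fell in the window. This rule found 4 peaks of the 7313. The set was chosen by gene function with the presence and scores of peaks in this list already known, so counts, scores and ranks are descriptions without a test. As background, the share of all equally wide tiles of the chromosomes with at least 1 peak ran from 6.98% for 30 kb to 23.5% for 140 kb. The tiles include sequence that has no genes.

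The peaks come from chromatin immunoprecipitation followed by sequencing (ChIP-seq) with an anti-Klf4 antibody on mesenteric arcades, the small vessels that supply the gut, of C57BL/6 mice on chow diet. The labels name 1 library from eYFP+/+ Klf4WT/WT mice and 1 from eYFP+/+ Klf4delta/delta mice, with SMC (smooth muscle cell) in the name of both lines, so the eYFP reporter is shared by both groups. The promoter that drives the reporter and deletion, and the age, sex and number of the animals, are not given by the labels. The antibody was applied to the stromal vascular fraction of frozen tissue, in which smooth muscle, epithelial, macrophage and other cells were mixed, so a peak belongs to no particular cell type. The peak list names no genotype, and neither replicates nor a comparison of genotypes exist for any value given here. Whether the libraries were called together, separately or one against the other is not given by the labels, so how the peaks relate to the genotypes is not known here.

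Klf4 is a zinc-finger transcription factor that binds GC-rich and CACCC-containing DNA and takes part in the change of smooth muscle cells away from the contractile state. NF-kB is a family of dimeric transcription factors that is held inactive in the cytoplasm by inhibitor (IkB) proteins and enters the nucleus on inflammatory signals. In vessel walls it is known for switching on cytokines, chemokines and the adhesion molecules that capture leukocytes. Nfkb1 encodes the precursor of the p50 subunit, Nfkbia encodes the classical inhibitor IkB-alpha, itself induced by NF-kB, and Nfkbiz encodes the nuclear IkB-zeta, which acts on NF-kB target genes including Il6.

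Promoter sequence is shown for 3 genes: Nfkbia, with peaks in its window, Icam1, with a peak just outside it, and Il6, with the nearest peak 39.8 kb outside. The genes whose windows lay farthest from a peak are not shown. Each run holds the 250 bases before the transcript start, 5′ to 3′ on the gene's strand, from RefSeq on build GRCm38.p6. Capitals mark CACCC, the core of KLF sites, and kappaB sites, at which NF-kB binds, in the form GGGA, any base, then TTTCC. Both were marked on either strand. Sites of any other form are left in lower case. Because the peaks are on mm9, whether a peak covers these bases was not determined.
Nfkbia, chr12:55492648-55492897, minus strand: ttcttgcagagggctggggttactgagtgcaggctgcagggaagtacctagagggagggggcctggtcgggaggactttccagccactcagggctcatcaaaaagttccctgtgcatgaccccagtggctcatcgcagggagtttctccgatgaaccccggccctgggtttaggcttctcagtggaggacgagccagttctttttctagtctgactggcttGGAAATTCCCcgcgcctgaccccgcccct
Icam1, chr9:21015690-21015939, plus strand: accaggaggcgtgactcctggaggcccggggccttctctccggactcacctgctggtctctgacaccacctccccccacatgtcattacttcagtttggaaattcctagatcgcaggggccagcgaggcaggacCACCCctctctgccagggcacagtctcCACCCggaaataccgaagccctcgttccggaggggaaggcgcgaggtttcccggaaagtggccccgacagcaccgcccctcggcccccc
Il6, chr5:30012864-30013113, plus strand: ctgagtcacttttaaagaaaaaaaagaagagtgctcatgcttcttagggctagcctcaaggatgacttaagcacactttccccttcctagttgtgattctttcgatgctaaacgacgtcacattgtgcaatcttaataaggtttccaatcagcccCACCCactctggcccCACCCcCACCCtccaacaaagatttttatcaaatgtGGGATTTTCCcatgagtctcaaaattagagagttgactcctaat

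Of the 9 genes, 5 had a promoter in the reference table (Nfkbia, Il6, Cxcl12, Icam1 and Ptgs2). CACCC or its complement occurred in 3 of the 5, against 52.0% of all 32851 promoters searched over the same 250 bases. Il6, whose window held no peak, had 3 copies, beginning 95, 80 and 74 bases before the start. Icam1 had 2 copies, at 116 and 89 bases, and Cxcl12 had 2, at 149 and 110 bases, the latter on the opposite strand. Nfkbia, with 2 peaks in its window, had none in these bases, and neither had Ptgs2. The longer KLF sites CCACACCC and CCACGCCC were in none of the 5 promoters and in 3.2% and 4.79% of all promoters. Of these longer sites, CCACACCC contains CACCC and CCACGCCC does not. Other GC-rich sequence, which Klf4 also binds, was not searched, so these counts do not show which promoters Klf4 can bind.

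A kappaB match was present in Il6 and in Nfkbia, 2 of 5 promoters, while 0.356% of all promoters held one. In Il6 it began 44 bases before the start with the letters GGGATTTTCC. In Nfkbia it lay on the opposite strand, 29 bases before the start, and reads GGAAATTCCC in the printed run. Both genes are known NF-kB targets. Looser forms of the kappaB site were not searched, so a promoter without a match may still hold a site. Among 23 other NF-kB pathway genes, 19 had promoters in the table, 28 in all because a gene can have several. CACCC was in 20 of these 28 promoters, belonging to 15 genes, beside 52.0% of all promoters. A kappaB match was in 2 of the 28, those of Cxcl1 and Nfkb2, beside 0.356% of all promoters. Klf4 peaks could not be assigned to these other genes, because their mm9 positions were not used here. A match of letters is a description and does not show that a factor binds there.

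The Nfkbiz peak had the highest score of all 242 peaks on chromosome 16. It spanned 4085 bp at chr16:55819213-55823297 with a score of 944.53, where the score is the value assigned by the authors' peak caller. The scale of the score is not given, so a ratio of scores is not a ratio of binding. Only 2 peaks of the list scored higher, so that 0.041% of peaks reached this score or more. By width the peak ranked 5, with 4.47 times the median width of 913 bp and 8.43 times the median score of 112.02. The next highest score on chromosome 16 was 519.78, which the Nfkbiz peak exceeded 1.82-fold. The few peaks of like breadth also scored high. It ranked 2 among the 5 peaks of the list within 10% of its width, itself included, and their median score was 876.24. Per kb of width its score was 231, and its rank on that scale was 558.

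The Nfkbiz peak stood alone in its 70 kb window, 3.7 kb below the window's centre. Of all tiles of that width laid end to end over the chromosomes, 14.2% held at least 1 peak midpoint, and 13.4% of those on chromosome 16 did. The nearest other peak began 72.0 kb above it, with a score of 172.17. On the lower side, the nearest peak lay 3339.3 kb from the window and had a score of 65.22, close to the list's minimum of 60.01. The Nfkbiz peak thus sat at the edge of a long stretch without peaks. It was the lowest in position of the 7 peaks within 500 kb of the window's centre.

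**Figure D1:**
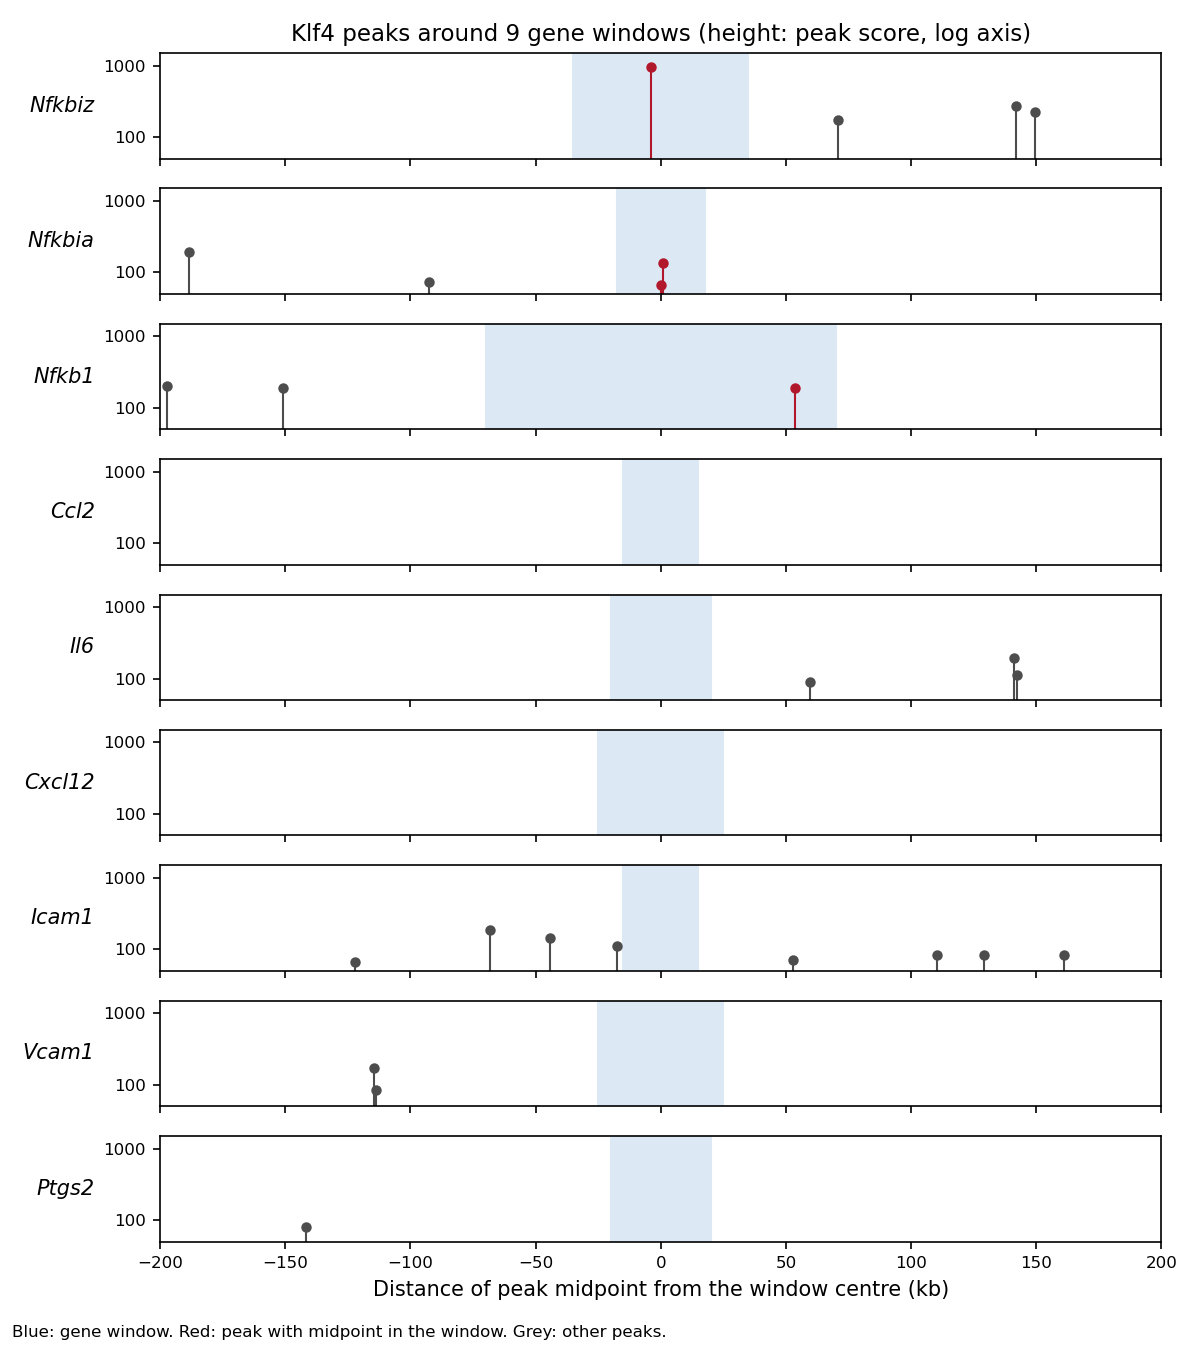
Peaks within 200 kb of the centre of each gene window. The horizontal axis is distance of the peak midpoint from the window centre in kb, the height is the peak score on a log axis, shading marks the window, red marks the 4 peaks inside a window and grey the others; the Nfkbiz peak (944.53) stands above all other peaks shown, and the rows of Ccl2 and Cxcl12 are empty.

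Nfkbia, the gene of the classical cytoplasmic inhibitor, carried 2 small peaks side by side. The first spanned 701 bp at chr12:56592090-56592790 and scored 66.83, at rank 6738, near the bottom of the list. The other spanned 363 bp at chr12:56593155-56593517 and scored 134.1, at rank 2699. They were separated by 364 bp, and together with that gap they occupied 1428 bp. The narrower peak had 2.01 times the score of the wider one and 3.87 times its score per kb.

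The narrower Nfkbia peak was compact for its score. At 363 bp, only 94 peaks of the list were narrower, and 98.7% were at least as wide. Among the 84 peaks within 10% of its width its score ranked 1, against a median of 73.04. Its score per kb of 369 ranked 41 of the list, or within the upper 0.561%. The wider Nfkbia peak showed the opposite: 91.7% of the 1193 peaks of similar width scored as high or higher. This contrast holds for the peaks as called, 364 bp apart. Merging peaks under 1 kb apart joined them into 1 region of 1428 bp, given the higher score of 134.1. The narrow width and rank 41 do not describe that region. Both peaks lay within 1 kb of the centre of the 35 kb window, where 7.99% of tiles of that width held a peak (6.82% on chromosome 12). The next peak outside was 75.1 kb below the window with a score of 73.35, and the first above was 311.5 kb away with a score of 167.22. The nearest peak with a higher score than the narrow Nfkbia peak lay 188.4 kb away.

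Nfkb1, the gene of the p50 precursor, carried 1 peak in the upper 25% of scores. The peak spanned 1127 bp at chr3:135353065-135354191 and scored 190.85, at rank 1190, with 16.3% of the list at or above it. It was 1.7 times the median score and 1.23 times the median width, and 18.8% of the 1240 peaks of similar width scored at least as high. The peak lay 53.6 kb above the centre of a 140 kb window, toward its upper end, and the rest of the window was empty. With 23.5% of tiles of that width holding a peak (20.4% on chromosome 3), this window was the widest of the 9 and had the highest background. The neighbouring peaks were 81.1 kb below the window, with a score of 190.84, and 962.4 kb above it, with a score of 107.59.

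**Figure D2:**
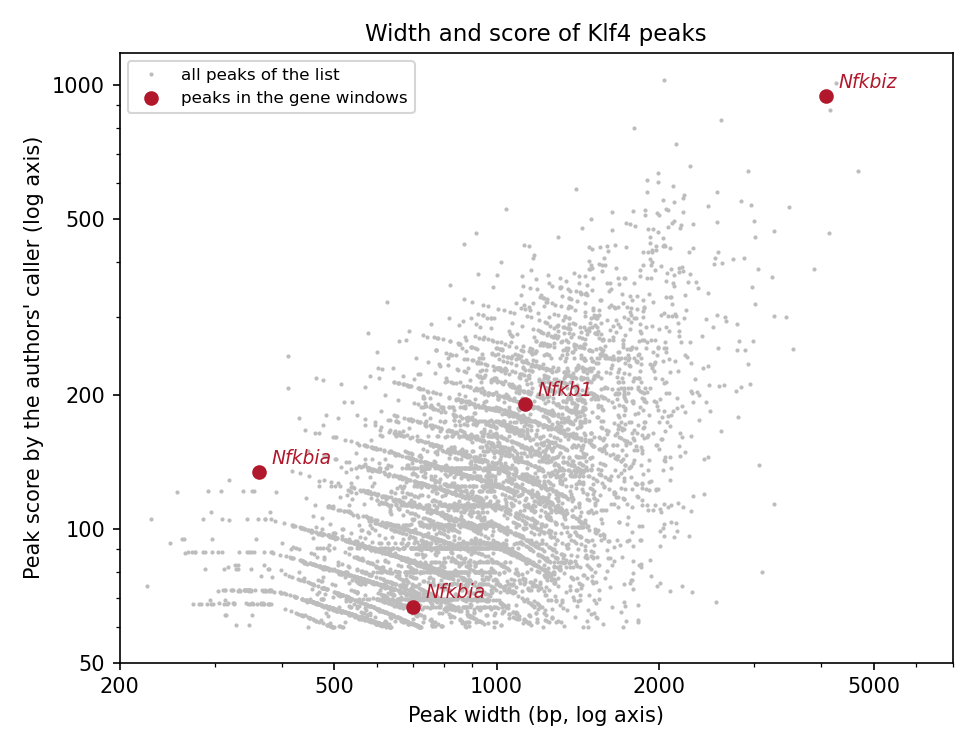
Width in bp and score of all 7313 peaks, both on log axes, with the 4 peaks at the regulators in red. The Nfkbiz peak lies at the upper right among the widest and highest, the narrow Nfkbia peak lies above peaks of its own width, and the Nfkb1 and wider Nfkbia peaks lie within the main cloud.

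The 4 peaks therefore differed widely among themselves. Scores ranged from 66.83 to 944.53 and widths from 363 to 4085 bp. Their median score was 162.48, beside 112.02 for the whole list, with 3 peaks above that value and 1 below. Their median width was 914 bp, beside 913 bp for the list. Nfkbiz alone accounted for the upper extreme in both measures.

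The endothelial and mural adhesion molecules Icam1 and Vcam1, which bind leukocyte integrins, had no peak in their windows, but differed in their surroundings. The 30 kb window of Icam1 missed a peak by 2.5 kb: a 1322 bp peak at chr9:20806795-20808116 with a score of 110.31 and rank 3716 lay just below it. This was the peak nearest to any window edge among those left out. Above the window, the nearest peak was 37.8 kb away with a score of 70.48. The Icam1 region was rich in peaks, with 4 within 100 kb and 19 within 500 kb of the window centre, the highest scoring 516.9. Only 0.722% of positions on a 1 kb grid over the chromosomes had 19 or more peaks within 500 kb. In the gene order of GRCm38.p6, Icam1 lies between Mrpl4 and Icam4, and the peaks around it were not assigned to any of these genes.

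Around Vcam1 the nearest peak lay 88.6 kb below the 50 kb window, with a score of 84.94, and the nearest above was 276.5 kb away with a score of 154.52. The window thus lay in a stretch of 414.1 kb free of peaks, although 8 peaks fell within 500 kb of its centre. The background was 6.98% of tiles with a peak at the width of the Icam1 window (8.12% on chromosome 9) and 10.8% at that of Vcam1 (8.94% on chromosome 3). With most tiles of these widths empty, an empty window is the usual outcome over all chromosomes. These shares do not take into account the many peaks around Icam1.

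The chemokine genes Ccl2, which draws monocytes, and Cxcl12, which guides leukocytes and progenitor cells, lay farthest from any peak. From the centre of the 30 kb Ccl2 window the nearest peak was 728 kb away, and the peak-free stretch around it measured 1983.7 kb. The peak that ended this stretch on the upper side had a score of 401.19 and rank 91, and the one on the lower side scored 133.35. Chromosome 11 was otherwise rich in peaks, with 12.2% of its 30 kb tiles filled against 6.98% over all chromosomes. For Cxcl12 the nearest peak was 666.7 kb from the centre of its 50 kb window, with a score of 173.12, in a peak-free stretch of 1647.8 kb. Tiles of that width held a peak in 10.8% of cases, and in 9.25% on chromosome 6. Both genes had no peak within 500 kb of the window centre, which was also true of 35.4% of grid positions.

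The cytokine gene Il6 had its nearest peak 39.8 kb above a 40 kb window, a 914 bp peak with a score of 90.8 and rank 4741. On the lower side the nearest was 257.4 kb away and scored 226.99. Ptgs2 encodes the inducible cyclooxygenase of prostaglandin synthesis. Low-scoring peaks lay on both sides of its 40 kb window, with scores of 79.98 at 121.8 kb below and 91.77 at 269.9 kb above. These were the only 2 peaks within 500 kb of its centre, against 5 for Il6. At 40 kb, 8.96% of tiles held a peak, with 10.5% on chromosome 5 (Il6) and 7.21% on chromosome 1 (Ptgs2).

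Ordered by distance from window centre to nearest peak midpoint, the genes ran Nfkbia (0.1 kb), Nfkbiz (3.7 kb), Icam1 (17.5 kb), Nfkb1 (53.6 kb), Il6 (59.8 kb), Vcam1 (113.6 kb), Ptgs2 (141.8 kb), Cxcl12 (666.7 kb) and Ccl2 (728 kb). The median over all positions of the 1 kb grid was 272 kb, and 7 of the 9 genes were nearer than that. The window centre of Icam1 was thus nearer to a peak than that of Nfkb1, whose wider window reached a peak farther from its centre. A window centre is not the start of a gene, so these distances do not order the genes by distance from gene to peak. The grid includes gene-poor sequence and sequence to which reads cannot be mapped, where few peaks can be called, so it does not stand for genes alone.

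**Figure D3:**
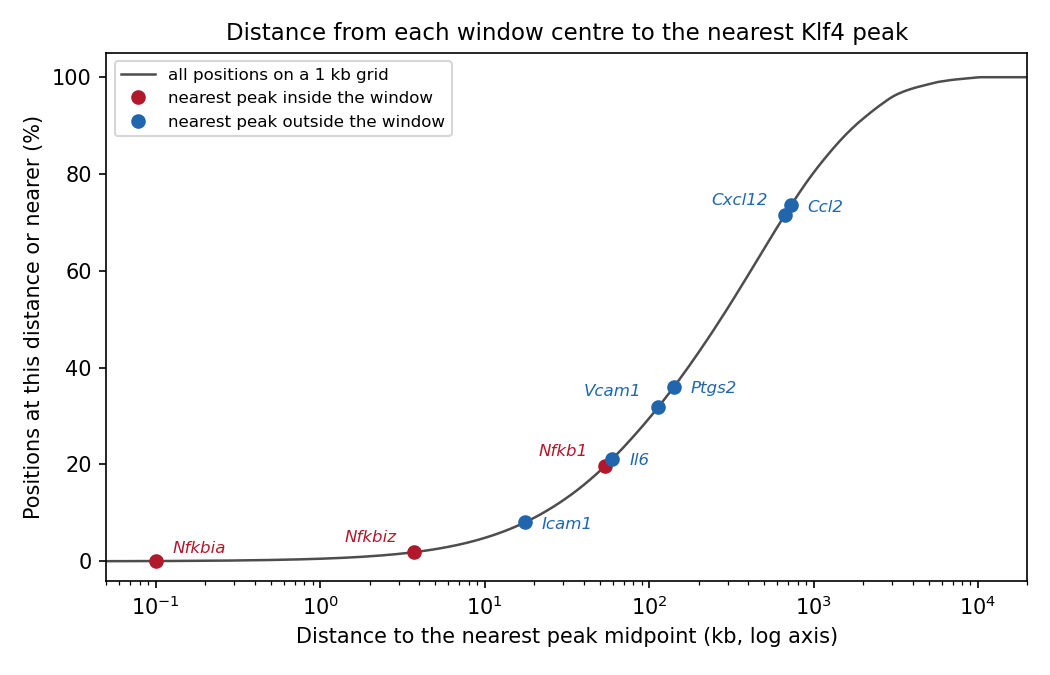
Distance from the centre of each gene window to the nearest peak midpoint, in kb on a log axis, against the percentage of positions on a 1 kb grid at that distance or nearer. Red points have the nearest peak inside the window and blue points outside; Ccl2 and Cxcl12 lie beyond the grid median of 272 kb and the other 7 genes below it.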

How the data were processed

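The deposited file is 1 peak list for the series, naming neither library, with chromosome, start, end, name and score. The score of each peak was assigned by the authors' peak caller. Per the file, peak names begin with MACS, and per the submitters' processing notes Bowtie, SAMtools and build mm9 were used. The sources used here do not give versions, the calling threshold, the control library or the read depth. Coordinates are printed 1-based.

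Peaks were assigned to 9 mm9 windows by midpoint and ranked by score over all 7313, ties taking the best rank. The named genes are all 9 members, every peak in their windows and the nearest peak on each side. The members, windows and lists were chosen with earlier results of these data known. The background is the share of non-overlapping tiles as wide as a window, from position 1 to the last peak of the autosomes and X, that hold a peak midpoint. Coordinates were not moved between builds; promoter motifs were searched on both strands in RefSeq promoters of GRCm38.p6, overlapping matches counted. No test was made. The assignment was checked on simulated peaks. Computations ran in Python 3.11.15 with pandas 2.3.3 and numpy 2.4.6, and plots were drawn with matplotlib 3.10.9.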

Additional observations from a re-analysis of the deposited data

How the results depend on the processing

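Nfkbiz and Nfkb1 held a peak under each alternative tried, and Nfkbia under each except the upper 25% of scores. The 3 genes with a peak became 4 with windows widened by 10 kb, through Icam1, and 5 with windows widened by 50 kb, through Icam1 and Il6. The 4 peaks became 9 with windows widened by 50 kb and 2 with the upper 25% of scores. Their median score, 162.48, became 190.85 with peaks under 1 kb apart merged and 134.1 with windows widened by 10 kb. The best rank, 3 by score, was 5 by width (Nfkbiz) and 41 by score per kb (Nfkbia). Rank 41 belongs to the narrower Nfkbia peak as called, which merging joined to the wider one. With the upper 50% of scores, tiles of 30, 35, 40, 50, 70 and 140 kb held a peak in 3.92%, 4.52%, 5.13%, 6.29%, 8.45% and 15.1% of cases, by construction fewer than with all peaks. Searching 300 promoter bases instead of 250, chosen after seeing the data, left the motif counts of 3 and 2 genes. The shares of all promoters rose from 52.0% to 57.5% for CACCC and from 0.356% to 0.411% for kappaB. No paired analysis was possible because each genotype had a single library and the list names neither. The read depth is unknown, so a window without a peak does not show absent binding.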

Other observations

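The Nfkb1 peak and the next peak below it, 203.8 kb apart, had scores of 190.85 and 190.84 and held the adjacent ranks 1190 and 1191 of 7313. How often neighbouring peaks have such close scores was not counted, and a link between these peaks was not tested.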
